A study of Mus musculus with 6 samples.

Results

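Committed and newly formed oligodendrocytes were examined in the nucSeq data of the mouse hypothalamus. A nucleus was taken as a member when it held at least 1000 unique molecular identifiers (UMIs) in all, at least 3 UMIs of the stage markers Gpr17, Bmp4, Enpp6 and Neu4 together, fewer than 3 UMIs of the precursor markers Pdgfra, Cspg4 and C1ql1, fewer than 3 UMIs of the mature markers Mog, Mag, Ermn and Mobp, and at most 2 UMIs of the neuronal markers Snap25, Syt1 and Rbfox3. This rule found 83 of 39665 nuclei. Precursors and mature oligodendrocytes, chosen by the mirror rules with at least 3 UMIs of their own markers and fewer than 3 of each of the other sets, numbered 426 and 1327 and served only for comparison. All nuclei came from the hypothalamus of wild-type male C57Bl/6 mice aged 6 to 8 weeks, with no transgene or Cre line in any group. There were 12 mice fed chow ad libitum, in 2 cohorts of 6, and 6 mice fasted overnight for 16 h. Tissue of 1 cohort was pooled, which gave 1 fasted pool and, on different preparation days, 2 pools of ad-libitum-fed mice. Each pool was sorted as DRAQ5-stained singlet nuclei into a pair of tubes that became separate 10x droplet libraries. The labels do not say which of the 4 ad-libitum-fed libraries, called fed libraries 1 to 4 below, share a pool, and for the fasted pool the preparation and the feeding state cannot be told apart.

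Oligodendrocytes arise throughout adult life from dividing precursor cells. A precursor that leaves the cell cycle passes through a short committed stage and a premyelinating stage, in which it extends processes toward axons, and only then makes myelin or dies. In the adult brain these intermediate cells are rare, and they are recognized by transient genes such as Gpr17, a G-protein-coupled receptor that holds back maturation, Bmp4, a secreted ligand, Enpp6, a choline-specific phosphodiesterase, and Neu4, a sialidase.

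Fed libraries 1 to 4 held 15, 17, 4 and 6 members, and fasted libraries 1 and 2 held 23 and 18. The members carried 334190 UMIs in all, from 25398 in fed library 3 to 94502 in fasted library 1, and the median member had 3837 UMIs, against 2937 in precursors and 2339 in mature oligodendrocytes. Fed libraries 3 and 4 stood apart from the rest. Their median members had 6405.5 and 6283 UMIs, whereas those of the other 4 libraries had between 2874 and 4176. Ribosomal protein genes took 2.08% and 1.73% of the members' UMIs in libraries 3 and 4. They took 0.607% and 0.484% in fed libraries 1 and 2 and 0.344% and 0.331% in the fasted libraries. In precursors and in mature oligodendrocytes as well, libraries 3 and 4 were highest and the fasted libraries lowest. Values without libraries 3 and 4 are given beside the counts of genes, the shares and the fasting contrast. Any pair of libraries shared between 5 and 17 cell barcodes, none of which was a member in both, and 1 member had its barcode in another library. One member, in fasted library 1, had a doublet score among the highest 5% of its library.

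The 4 stage markers chose the members, so their values describe the choice and carry no test. Of the 83 members, 80.7% had a Neu4 UMI, 72.3% a Gpr17 UMI, 67.5% an Enpp6 UMI and 59.0% a Bmp4 UMI. All 4 markers were present together in 30 members, 3 of them in 21, a pair in 17 and a single marker in 15. Depth differed along this series, with median UMIs of 4849, 3833, 3173 and 2892. Enpp6 was at 565, 531, 1614 and 984 CPM (UMIs of the gene per 1e+06 UMIs) in the summed members of fed libraries 1 to 4 and at 667 and 729 CPM in fasted libraries 1 and 2. Bmp4 was at 524, 380, 630 and 1011 CPM in fed libraries 1 to 4 and at 434 and 530 CPM in the fasted pair. Gpr17 was at 282, 512, 433 and 874 CPM, and at 444 and 530 CPM in the fasted libraries. For all of these genes the fasted values lay within the range of the fed ones. Neu4 was at 666, 721, 354 and 465 CPM and at 645 and 663 CPM in the fasted libraries, again with overlapping groups. The other classes were capped for these genes by the rule. Below that cap, a Neu4 UMI was found in 48.8% of precursors, a Gpr17 UMI in 27.0%, a Bmp4 UMI in 1.17% and an Enpp6 UMI in 0.235%. In mature oligodendrocytes the shares were 0.528% for Neu4, 1.58% for Gpr17, 0.226% for Bmp4 and 12.4% for Enpp6. Bmp4 lies on chr14:46383520-46390669, Enpp6 on chr8:46986887-47096762 and Neu4 on chr1:94020451-94028334 of GRCm38.

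The label was checked against genes that the rule did not use. At least 1 UMI of Sox10, Olig1 or Olig2, the transcription factors that define the lineage, was found in 74 of the 83 members, namely 12, 17, 4 and 5 in the fed libraries and 20 and 16 in the fasted libraries. All 21 members with 3 stage markers and all 30 with 4 had such a UMI, against 15 of 17 with a pair of markers and 8 of 15 with a single one. Of the 9 members without it, 5 carried Bmp4 as their only stage marker and had no UMI of Bcas1 or 9630013A20Rik, which are described below. One of these 5, in fasted library 1, held 156 UMIs of the 14 neuronal markers, Meg3 alone giving 62, and another member without a lineage UMI, in the same library, held 22 UMIs of astrocyte markers and 7 of vascular markers. These 5 members thus met the rule but not the label in the lineage factors, although 2 of them held 5 and 4 UMIs of Tcf7l2. Just inside the threshold of 3 stage-marker UMIs there were 19 members, of which 15 had a lineage UMI. Just outside it there were 25 nuclei with 2 such UMIs, of which 15 had a lineage UMI. A further 191 nuclei reached 3 stage-marker UMIs but also 3 precursor UMIs (125 nuclei) or 3 mature UMIs (66 nuclei), and 24 nuclei were kept out by the neuronal markers.

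Markers of other cell types were low in the members. The 11 neuronal markers outside the rule took a median of 0.285% of a member's UMIs, against 0.658% in precursors and 0.211% in mature oligodendrocytes, all of which the rule kept low in Snap25, Syt1 and Rbfox3. Led by Snhg11, these 11 markers summed to 2461, 3928, 2441 and 1995 CPM in the fed libraries and 5048 and 3633 CPM in the fasted libraries. The highest value rested on 1 nucleus: without the member of 156 neuronal UMIs described above, fasted library 1 was at 3577 CPM, and both fasted values lay within the range of the fed ones. The 12 astrocyte markers, led by Slc4a4 and all detected, summed to 323, 361, 118 and 246 CPM in the fed libraries and 730.1 and 212 CPM in the fasted libraries. Of 10 microglia markers 7 were detected, with Csf1r, Ly86 and Siglech at 0 and a sum of at most 152 CPM, in fed library 2. Of 12 vascular and mural markers 6 were detected, led by Col1a2, with Cldn5, Itm2a, Pdgfrb, Rgs5, Slco1a4 and Vtn at 0 and a sum of at most 137 CPM, in fed library 4. Of 12 tanycyte and ependymal markers 8 were detected, led by Col23a1, with Ccdc153, Dio2, Rax and Tmem212 at 0 and a sum of at most 169 CPM, in fasted library 1. The part of RNA from other cells in the levels below was not tested.

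Outside the rule, the members were set off from both precursors and mature oligodendrocytes by genes of the premyelinating stage. Because the rule caps the precursor and mature markers, genes that travel with those markers are held down by the choice itself, and all differences between the classes are given as descriptions without a test. Levels are CPM of the summed nuclei of a library, ratios are the log2 of the mean CPM plus 1 over 6 libraries, with the SD of the ratios over the 4 libraries that hold at least 10 members, and a direction was counted when those 4 libraries shared it. Of 2705 genes with a mean of at least 100 CPM in a class, 60 (2.22%) were at least 4-fold higher in members than in both other classes by this ratio and 20 (0.739%) were at least 4-fold lower. The lower count rests on the pseudocount, since with a pseudocount of 10 it was 6, while 48 genes were higher. The median gene was at a log2 ratio of -0.05 to precursors and 0.38 to mature oligodendrocytes. With TMM scaling, which scales the sums by a trimmed mean of the gene ratios, these medians moved to -0.36 and -0.45, and 31 genes were higher and 33 lower. All 31 were among the 60. With fed libraries 1 and 2 and the fasted libraries only, 46 genes were higher and 16 lower, 42 of the 46 among the 60.

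The stage genes outside the rule were higher in members than in both other classes. Of the 27 genes on this list, 26 were detected in members and 23 reached 100 CPM in a class. Of these 23, 21 were higher in members than in precursors and none was lower, and 19 were higher than in mature oligodendrocytes and 1 was lower. Of all genes, 20.4% were higher and 23.0% lower than in precursors, and 32.6% were higher and 20.8% lower than in mature oligodendrocytes. On the list, 16 were at least 4-fold over both, against 2.22% of all genes. A gene could reach 100 CPM through the members alone, and the list was chosen with earlier results of these data known. The counts thus describe the members and do not test their label. The medians of the list were 3.03 and 3.07 on the log2 scale, and 2.64 and 2.35 with TMM scaling. Bcas1, a gene known to mark newly forming oligodendrocytes, was at 3691, 3378, 5000 and 4536 CPM in fed libraries 1 to 4 and at 4508 and 5397 CPM in the fasted pair. Its mean of 4418 ± 765 CPM (SD, n = 6 libraries) stood against 311 CPM in precursors and 642 CPM in mature oligodendrocytes, log2 ratios of 3.82 ± 0.17 and 2.78 ± 0.21. Every library of members lay above every library of the other classes. Bcas1, on chr2:170346991-170427845, overlaps the antisense genes Bcas1os1 and Bcas1os2, and the sources used here do not give the strand setting of the counting.

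The long noncoding RNA 9630013A20Rik, known as a transcript of immature oligodendrocytes, was near absent from precursors. It was at 2420, 1765, 3071 and 3115 CPM in fed libraries 1 to 4 and at 1746 and 2267 CPM in the fasted pair, while precursors averaged 21.6 CPM and mature oligodendrocytes 504 CPM. The log2 ratios were 6.73 ± 0.64 and 2.25 ± 0.84. In mature oligodendrocytes the level came from few nuclei: 6.33% of them, 84 nuclei, held all 1701 UMIs. With each nucleus thinned to 1000 UMIs, 65.1% of members (95% Clopper-Pearson interval 53.8 to 75.2), 3.05% of precursors (1.63 to 5.16), 2.94% of mature oligodendrocytes (2.10 to 3.99) and 0.334% of 23923 neuronal reference nuclei had a 9630013A20Rik UMI. Before thinning the shares were 77.1%, 7.51%, 6.33% and 2.46% at median depths of 3837, 2937, 2339 and 7552 UMIs. The gene lies on chr14:84458639-84476424, antisense to Pcdh17.

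**Figure D1:**
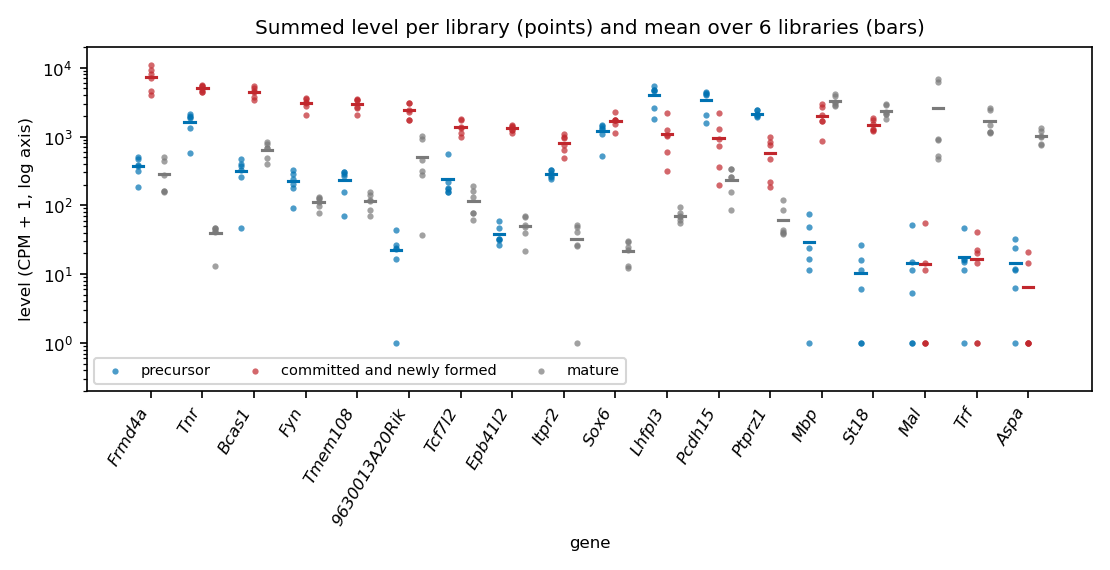
Level of 18 genes in the summed nuclei of each library (points; CPM plus 1, log axis) with the mean over 6 libraries (bars), for precursors (blue), committed and newly formed oligodendrocytes (red) and mature oligodendrocytes (gray). The 8 genes from Frmd4a to Epb41l2 were higher in every library of members than in any library of the other classes, Lhfpl3 was highest in precursors by its mean, and Mal, Trf and Aspa were high in mature oligodendrocytes alone.

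Further genes of the stage list are described one by one. Tcf7l2, a transcription factor of the Wnt pathway that is required for oligodendrocyte differentiation, was at 1755, 987, 1811 and 1366 CPM in fed libraries 1 to 4 and at 1132 and 1326 CPM in the fasted pair, against means of 237 CPM in precursors and 116 CPM in mature oligodendrocytes. Fyn, a kinase that acts early in process extension and myelin gene expression, averaged 3036 CPM, against 221 and 111 CPM. Itpr2, an intracellular calcium channel, averaged 815 CPM, against 285 and 31.5 CPM. Sirt2, a deacetylase of the myelin sheath, averaged 1696 CPM, against 106 and 343 CPM, and moved with library, at 3110 and 2487 CPM in fed libraries 3 and 4 and between 930 and 1392 CPM in the others. Prickle1 was the 1 gene of this list that was lower than in mature oligodendrocytes (515.8 against 670.5 CPM) in 4 of 4 libraries. Bmpr1b was not detected in members.

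Ranked over all genes by the smaller of the ratios to the other classes, the 10 highest were Gm36988, Epb41l2, Kif19a, Frmd4a, Gm13187, Fyn, Pdcd4, Tmem108, Pde9a and Pik3r3. These include a single locus 3 times, since Gm36988 (chr2:4316479-4318886) and Gm13187 (chr2:4287595-4301167, opposite strand) both lie inside Frmd4a (chr2:4017717-4614043), which encodes a FERM-domain scaffold protein, and reads of these genes may not be separable. Frmd4a was at 8108, 3947, 10985 and 9264 CPM in fed libraries 1 to 4 and at 4518 and 7001 CPM in the fasted pair, with log2 ratios of 4.29 ± 0.54 to precursors and 4.69 ± 1.02 to mature oligodendrocytes. Epb41l2, a protein of the 4.1 family that links membranes to the spectrin skeleton (chr10:25359798-25523519), varied little between libraries. It was at 1412, 1252, 1378 and 1257 CPM and at 1132 and 1485 CPM in the fasted libraries, with log2 ratios of 5.11 ± 0.61 and 4.72 ± 0.33. Kif19a, a kinesin motor (chr11:114765388-114790739), averaged 324 CPM, against 2.67 and 14.4 CPM. Pdcd4, an inhibitor of translation, averaged 1523 CPM, and the transmembrane protein Tmem108 averaged 2922 CPM, against 231 CPM in precursors and 113 CPM in mature oligodendrocytes. Pde9a, a cyclic GMP phosphodiesterase, and Pik3r3, a regulatory subunit of phosphoinositide 3-kinase, reached 117 and 114 CPM from 35 and 36 UMIs. The order depends on the pseudocount. With a pseudocount of 10 the smaller log2 ratio of Gm36988 was 4.36, below the 4.49 of Epb41l2. Those of Gm13187, Pde9a and Pik3r3 were 3.11, 2.79 and 2.70. With nuclei thinned to 1000 UMIs, Pik3r3 was at 1.71 ± 4.53 over precursors, short of 4-fold.

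By the same ratio, the 10 genes furthest below both other classes were Pde8a, Plekhh1, Tnfaip6, Creb5, Hepacam, Erbb3, Pstpip2, Arap2, Gng11 and Ptn. Pde8a, Plekhh1 and Tnfaip6 had no UMI in the members. A count of 0 allows up to 3 counts over all members, or 8.98 CPM. Against the levels pooled over all nuclei of a class (542, 542 and 354 CPM in mature oligodendrocytes and 18.6, 14.7 and 17.8 CPM in precursors), this places them at least 60.4-, 60.4- and 39.4-fold lower than in mature oligodendrocytes and at least 2.07-, 1.64- and 1.98-fold lower than in precursors, short of 4-fold. Their place at the head of the order rests on the pseudocount of 1. With a pseudocount of 10 their log2 ratios to precursors were -1.57, -1.47 and -1.29, and Ptn, at -3.08 with a pseudocount of 1, was then lower than each of them. Erbb3, the neuregulin receptor subunit of the lineage, had 2 UMIs in members, 51 in precursors and 377 in mature oligodendrocytes. Ptn, a secreted growth factor, had 47, 900 and 1863 UMIs. Its log2 ratios of -3.08 to precursors and -2.47 to mature oligodendrocytes depended on the libraries. With fed libraries 1 and 2 and the fasted libraries only, they were -1.97 and -1.56, short of 4-fold. Without fed library 2 they were -3.72 and -3.13. The remaining 5 genes had between 1 and 8 UMIs in the members, which bears no fold.

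Members kept part of the precursor program. Of 19 measurable precursor markers outside the rule, 12 were lower in members than in precursors and 2 were higher, and 17 were higher than in mature oligodendrocytes with none lower. Of all genes, 23.0% were lower and 20.4% higher than in precursors, and 32.6% were higher and 20.8% lower than in mature oligodendrocytes. The median log2 ratios of the list were -0.83 and 3.70. Lhfpl3, a tetraspan membrane protein used as a precursor marker, was at 1008, 2182, 315 and 601 CPM in fed libraries 1 to 4 and at 1259 and 1061 CPM in the fasted pair, against 4015 CPM in precursors and 69.7 CPM in mature oligodendrocytes. Ptprz1, a receptor phosphatase of precursors, averaged 569.8 CPM, against 2146 and 60.1 CPM. Pcdh15, an adhesion molecule, averaged 951 CPM, against 3429 and 235 CPM. The genes that went the other way were Tnr, which encodes the matrix protein tenascin-R, and Sema5a, a guidance molecule of the cell surface. Tnr was at 5466, 4706, 4489 and 4482 CPM in fed libraries 1 to 4 and at 5450 and 5569 CPM in the fasted pair, against 1640.1 and 38.4 CPM, with log2 ratios of 1.62 ± 0.17 and 6.99 ± 0.04. Sox6, a factor that delays maturation, averaged 1683 CPM in members and 1191 CPM in precursors but 20.9 CPM in mature oligodendrocytes.

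Of 23 measurable lineage transcription factors, 10 were higher and 5 lower than in precursors, and 12 were higher and 4 lower than in mature oligodendrocytes. Of all genes, 20.4% were higher and 23.0% lower than in precursors, and 32.6% were higher and 20.8% lower than in mature oligodendrocytes, so that the shares of lower factors were near those of all genes. The median log2 ratios of 0.57 and 0.61 became 0.20 and -0.05 with TMM scaling, while those of all genes went from -0.05 and 0.38 to -0.36 and -0.45, so that the list median stayed above that of all genes. St18, a zinc finger factor of differentiating oligodendrocytes, was already at 1476 CPM in members, against 9.30 CPM in precursors and 2343 CPM in mature oligodendrocytes. Sox10 averaged 717 CPM, against 484 and 439.7 CPM. Sox4, which falls as cells mature, averaged 292 CPM, against 110.5 and 16.9 CPM, and Nkx2-2, which promotes the onset of differentiation, averaged 206 CPM, against 94.2 and 59.1 CPM. Zfp365 averaged 203 CPM, against 12.2 and 70.5 CPM. Myrf, the factor that drives myelin genes, stood between the classes at 98.0 CPM, with 19.3 CPM in precursors and 151 CPM in mature oligodendrocytes, from 34 UMIs in members. Hes5, a Notch target of immature cells, had 7 UMIs in members and was lower than in precursors in 4 of 4 libraries.

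Myelin genes were split between those already expressed and those still absent. Of 33 measurable myelin and maturation genes, 31 were lower in members than in mature oligodendrocytes and 1, Gjc3, was higher, while 13 were higher than in precursors and 2 lower. All genes together gave 20.8% lower and 32.6% higher than in mature oligodendrocytes, and 20.4% higher and 23.0% lower than in precursors. The list medians were -2.98 against mature oligodendrocytes and 0.46 against precursors, and -2.57 and 0.64 with fed libraries 1 and 2 and the fasted libraries only. Precursors of fed libraries 3 and 4, 10 nuclei in each, differed from those of the other libraries. Their summed myelin and maturation genes were at 32648 and 18390 CPM, above the 17639 and 15085 CPM of the members there, whereas precursors of the other 4 libraries were between 3496 and 4412 CPM. Sums over 10 nuclei can rest on few of them. Over all 426 precursors these genes took a median of 0.389% of the UMIs of a nucleus, with an upper quartile of 0.494% but a highest value of 25.5%. Ptgds had the most UMIs of the list in precursors. The vascular markers summed to 644 and 2748 CPM in the precursors of fed libraries 3 and 4, against between 10.3 and 115 CPM in the others. The part of single nuclei and of RNA from other cells in these sums was not tested. Mbp, the myelin basic protein, was at 1654, 873, 2992 and 2705 CPM in fed libraries 1 to 4 and at 1661 and 2055 CPM in the fasted pair, against 28.6 CPM in precursors and 3322 CPM in mature oligodendrocytes, log2 ratios of 6.07 ± 1.07 and -0.74 ± 0.37. Mbp was thus far above the precursors in every library. Other myelin genes stayed far below the mature level: Mal averaged 13.1 CPM, Trf (transferrin) 15.5 CPM and Aspa (aspartoacylase) 5.57 CPM in members, against 2631, 1663 and 1016 CPM in mature oligodendrocytes. Opalin, Anln, Gjb1, Il33 and Plekhh1 had no UMI in the members. Enzymes of myelin lipids were intermediate, with Ugt8a at 263 CPM between 75.2 and 558 CPM and Fa2h at 399.5 CPM between 96.7 and 589 CPM. The connexin gene Gjc3 averaged 1867 CPM in members, against 519 CPM in precursors and 855 CPM in mature oligodendrocytes.

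**Figure D2:**
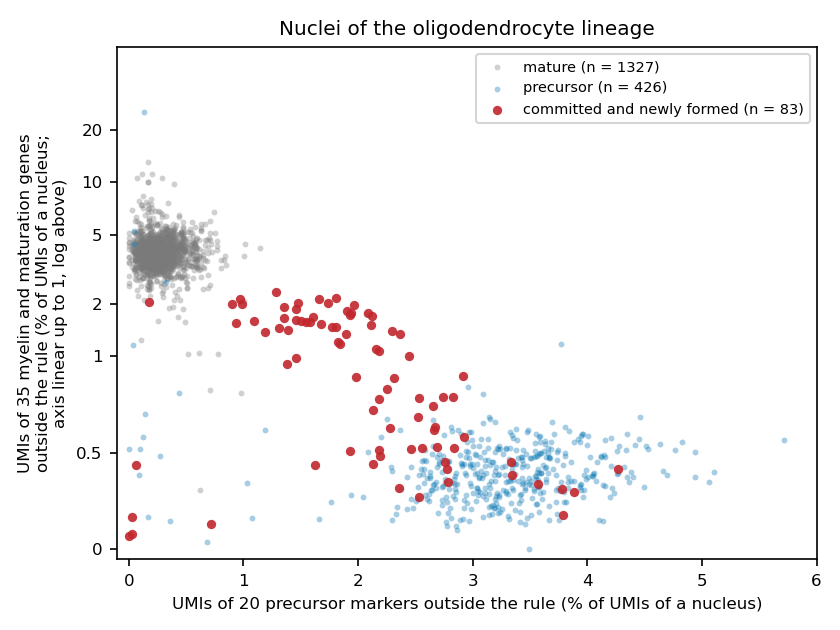
Each point is a nucleus of the oligodendrocyte lineage, placed by its share of UMIs from 20 precursor markers (horizontal axis, %) and from 35 myelin and maturation genes (vertical axis, %, linear up to 1 and logarithmic above). Committed and newly formed oligodendrocytes (red, 83) lay between precursors (blue, 426) and mature oligodendrocytes (gray, 1327) by their medians of 1.98% and 0.957%, and a few lay near 0 on both axes.

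Per nucleus, precursor markers outside the rule took a median of 1.98% of the UMIs of a member, 3.26% of a precursor and 0.260% of a mature oligodendrocyte. Myelin and maturation genes took 0.957%, 0.389% and 3.96%, and the stage genes 2.62%, 0.304% and 0.310%. The medians of the members thus lay between those of the other classes on both axes of the plot of precursor and myelin shares, where the caps of the rule on both marker sets hold down genes that travel with them. Their median share of the stage genes was above that of both.

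Of 27 measurable genes of process outgrowth, adhesion and the cytoskeleton, 17 were higher and 6 lower than in precursors, 15 were higher and 5 lower than in mature oligodendrocytes, and 5 were at least 4-fold over both. The counts of lower genes were near the 23.0% and 20.8% of all genes, and those of higher genes stood against 20.4% and 32.6%. At least 4-fold over both were 2.22% of all genes. The medians were 1.57 and 0.83, and 1.28 and 0.23 with TMM scaling, and the list took 2.09% of a member's UMIs, against 1.03% and 0.958%. Map1b, a microtubule-associated protein of growing processes, averaged 1158 CPM, against 157 CPM in precursors and 103 CPM in mature oligodendrocytes. Nrcam, a cell adhesion molecule, averaged 702 CPM, against 310.5 and 29.6 CPM. Nfasc, which encodes the adhesion molecule neurofascin, was at 2017, 512, 2756 and 2268 CPM in fed libraries 1 to 4 and at 2169 and 2214 CPM in the fasted pair, so that fed library 2 stood below the other 5. Of the guidance receptors on the list, Dcc averaged 261 CPM, against 1246 CPM in precursors, and Robo1 averaged 285 CPM, against 884 CPM.

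The Bmp and Wnt pathways, to which Bmp4 and Tcf7l2 belong, were thinly covered. Of 33 genes, 26 were detected in members and 7 reached 100 CPM in a class, with 1 higher and 1 lower than in precursors and 1 higher and 2 lower than in mature oligodendrocytes. Of all genes, 20.4% were higher and 23.0% lower than in precursors and 32.6% and 20.8% than in mature oligodendrocytes, and with 7 genes nothing is read from these counts. The medians were -0.29 and 0.37, the second turning to -0.30 with TMM scaling. The Bmp receptor gene Bmpr1a averaged 144 CPM, against 177 and 112 CPM. Smad7, an inhibitor of the pathway, averaged 93.9 CPM, against 35.8 CPM in precursors and 302 CPM in mature oligodendrocytes, in the same direction in 4 of 4 libraries for both. Of the 20 cell cycle genes, 9 were detected in members, and Mki67, Top2a and Cdk1 were at 0. Ccnd1, a cyclin of the first growth phase, had 3 UMIs in members but averaged 104 CPM in precursors.

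The members were not uniform. By UMIs of Bmp4 and Enpp6, 39 had both, 17 Enpp6 only, 10 Bmp4 only (5 of them together with Gpr17 and Neu4) and 17 neither. Median depth was 4404, 3863, 3623.5 and 2889 UMIs, and a missing UMI in a shallow nucleus does not show that the gene was silent. The nuclei with neither came from fed library 2 (8 nuclei) and the fasted libraries (6 and 3 nuclei) alone. Members with Enpp6 only and with Bmp4 only occurred together in 4 libraries, but only 1 library held the minimum of 5 nuclei of each kind set for this comparison, and no test was run. The values below are sums over nuclei with 95% Poisson intervals, which cover counting error only.

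Members with an Enpp6 UMI held more RNA of the stage and myelin genes than those without. The stage genes outside the rule took a median of 3.31% of their UMIs and 3.08% in members with both, against 0.769% in Bmp4-only members and 0.536% in those with neither. Myelin genes followed the same division, with 1.46% and 1.48% against 0.388% and 0.436%. Bmp4-only members were widely spread, with quartiles of 0.367% and 1.67% for the stage genes and 0.142% and 0.781% for myelin genes. The 9 members without a lineage UMI, 5 of them Bmp4-only, had a median of 0.415% for the stage genes. Frmd4a was at 10662 CPM (9900 to 11468) in Enpp6-only members and at 7909 CPM (7505 to 8330) in those with both, but at 372 CPM (198 to 636) with Bmp4 only and 297 CPM (166 to 491) with neither. The plot of levels by Bmp4 and Enpp6 shows the same break for 9630013A20Rik, Tcf7l2, Nfasc and Mbp. Mbp, for example, was at 2485 CPM (2125 to 2890) and 2400 CPM (2180 to 2637) in the first pair of states and at 143 CPM (46.4 to 334) and 139 CPM (55.8 to 286) in the second. Bcas1 was at 4618 and 5608 CPM in the first pair and at 1859 and 1864 CPM in the second, and Fyn at 3353 and 3700 CPM and at 1859 and 1507 CPM. Their Bmp4-only values rested on the nuclei without a lineage UMI: in the 5 Bmp4-only members with such a UMI, Bcas1 was at 4125 CPM and Fyn at 3998 CPM. The Bmp4-only level of 9630013A20Rik was held down as well, since the other 5 Bmp4-only members had no UMI of it. The Bmp4-only levels of Tcf7l2, Nfasc and Mbp include the same 5 nuclei, whose part in them is not given here. The libraries contributed unequally to the states, so the levels were also taken within libraries. Members with an Enpp6 UMI, alone or with Bmp4, had Frmd4a at 11592, 6673, 6234 and 8656 CPM in fed libraries 1 and 2 and fasted libraries 1 and 2, while the members of the same libraries without it were at 326, 91.6, 623 and 203 CPM. The order between the first pair of states did not hold within libraries, since in fasted library 2 Frmd4a was at 4848 CPM in Enpp6-only members and at 9936 CPM in those with both.

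The members with neither Bmp4 nor Enpp6, which were chosen through Gpr17 and Neu4, had the highest median share of precursor markers. Precursor markers took a median of 2.67% of their UMIs, against 1.66% in Enpp6-only members and 3.26% in precursors. In the values that follow they lay nearer to the precursors than to the members as a whole. The stage genes outside the rule took 0.536% of their UMIs, against 0.304% in precursors and 2.62% in all members, myelin genes 0.436%, against 0.389% and 0.957%, and Frmd4a was at 297 CPM, against a mean of 372 CPM in precursors. They met the rule of the members, and their difference from precursors was not tested. Lhfpl3 was at 3489 CPM (2993 to 4045) with neither gene and at 721 CPM (533 to 953) with Enpp6 only. Ptprz1 was at 1685 CPM (1346 to 2084) and 250 CPM (146 to 400), and Lrrc4c, a synaptic adhesion molecule, at 4857 CPM (4268 to 5505) and 1574 CPM (1290 to 1902). Within libraries, Lhfpl3 was at 4215, 3208 and 2239 CPM with neither gene in fed library 2 and fasted libraries 1 and 2, against 745, 609.7 and 956 CPM in the members with an Enpp6 UMI there. Ptprz1 was at 1741 and 2042 CPM with neither gene in the first 2 of these libraries, against 421 and 457 CPM, but at 622 CPM (202 to 1451, from 5 UMIs), against 462 CPM, in fasted library 2. All but 1 of these 17 nuclei had a lineage UMI. The 11 neuronal markers outside the rule took a median of 0.592% of their UMIs, against 0.242% in Enpp6-only members, and the part of neuronal RNA in these values was not tested. Of the 10 Bmp4-only members, 5 had a lineage UMI. In these 5, Tnr was at 6346 CPM and Lhfpl3 at 1840 CPM, with Frmd4a at 381 CPM. Their Frmd4a level was close to that of all Bmp4-only members.

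**Figure D3:**
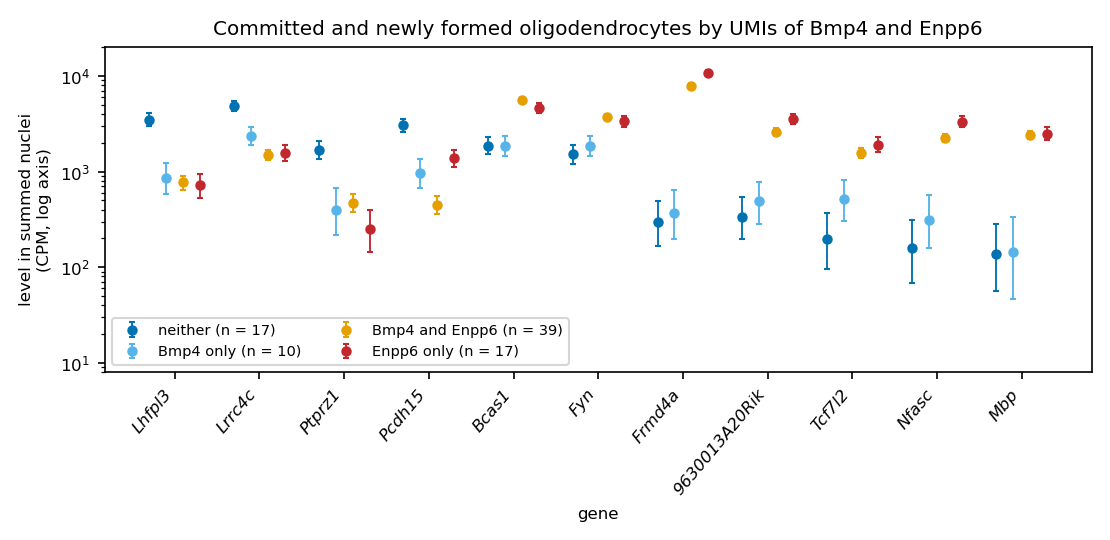
Level of 11 genes in committed and newly formed oligodendrocytes summed by the presence of Bmp4 and Enpp6 UMIs (CPM, log axis), with neither (17 nuclei), Bmp4 only (10), both (39) and Enpp6 only (17); bars are 95% Poisson intervals of the counts. Lhfpl3, Lrrc4c, Ptprz1 and Pcdh15 were highest with neither gene, and Frmd4a to Mbp were higher in both groups with Enpp6 than in both groups without it.

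The feeding comparison asks whether an overnight fast was accompanied by a change in the number or the RNA of these cells. The share of members among the nuclei was 0.178%, 0.256%, 0.0629% and 0.0941% in fed libraries 1 to 4 and 0.385% and 0.306% in fasted libraries 1 and 2. Both fasted values lay above all fed ones. The 95% Clopper-Pearson intervals, which cover counting error only, were 0.0995 to 0.293, 0.149 to 0.409, 0.0171 to 0.161 and 0.0345 to 0.205 in the fed libraries and 0.244 to 0.577 and 0.182 to 0.484 in the fasted ones. The mean share was 0.148 ± 0.0870% (SD, n = 4 libraries) and 0.346 ± 0.0555% (SD, n = 2), a difference of 0.198 percentage points (exact two-sided permutation test over libraries, p = 0.133, where the design allows no p below 0.0667). Within fed libraries 1 and 2 alone the difference was 0.129 percentage points, and 2 against 2 libraries allow no p below 0.333. Libraries from the same pool are not independent animals, so these p-values measure the spread between libraries and not between mice.

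Relative to their own lineage the members went the other way. Of the precursors, members and mature oligodendrocytes together, members made up 6.22%, 7.49%, 12.5% and 14.0% in the fed libraries and 3.75% and 2.65% in the fasted libraries. Again the groups did not overlap, but now with the fasted libraries lowest. The means were 10.0 ± 3.76% and 3.20 ± 0.781%, a difference of -6.84 percentage points (exact two-sided permutation test, n = 4 and 2 libraries, p = 0.133). Adjusted over the 2 shares tested, both p-values remained 0.133. Without fed libraries 3 and 4 the difference was -3.66 percentage points. The denominators differed between the libraries: the lineage as a whole took 2.86%, 3.42%, 0.503% and 0.674% of all nuclei in the fed libraries and 10.3% and 11.6% in the fasted libraries. There were 20.5, 23.0, 40 and 60 members for each 100 precursors in the fed libraries and 20.5 and 12.2 in the fasted libraries. The fasted values were the lowest, but fasted library 1 (23 members, 112 precursors) and fed library 1 (15 and 73) were equal to 3 significant digits. For each 100 mature oligodendrocytes there were 9.80, 12.5, 22.2 and 22.2 members, and 4.81 and 3.50 in the fasted libraries. The share of the lineage among sorted nuclei thus moved with the libraries, and its part in the members' share was not tested. The number of lineage nuclei also moved with the limit on neuronal markers. Without that limit, fed libraries 1 to 4 held 280, 261, 130 and 145 of them and the fasted libraries 707 and 809. With it they held 241, 227, 32 and 43, and 613 and 680. Without the limit, members were 6.43%, 7.66%, 6.15% and 6.21% of the lineage in the fed libraries and 4.24% and 2.72% in the fasted libraries.

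**Figure D4:**
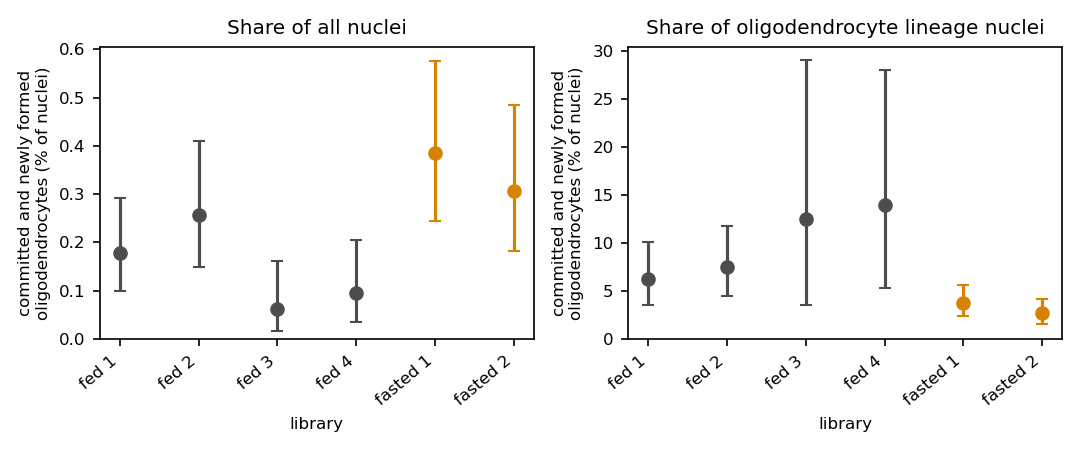
Committed and newly formed oligodendrocytes as a percentage of all nuclei (left) and of oligodendrocyte lineage nuclei (right) in each library, with 95% Clopper-Pearson intervals that cover counting error only. The fasted libraries (orange) were at 0.385% and 0.306% on the left, above all fed libraries (gray), and at 3.75% and 2.65% on the right, below all of them.

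No gene passed the threshold between fasted and fed members when the largest p over the possible pools was kept. Counts were summed per pool, and edgeR's quasi-likelihood test with Benjamini-Hochberg adjustment was run under the 3 ways of putting the fed libraries into pools, keeping the largest p. It tested 1472 genes and called none (0.0%). The lowest adjusted p was 0.247, and 67 genes had an unadjusted p under 0.05, 63 of them lower (4.28%) and 4 higher (0.272%) in fasted members. DESeq2 called none as well, with 28 genes at an unadjusted p under 0.05. With fed libraries 1 and 2 and the fasted libraries as separate samples, edgeR again called none of 1409 genes, and of the 88 with an unadjusted p under 0.05, 42 were higher. Without fed library 3 or 4 alone, 12 and 13 genes had an unadjusted p under 0.05, and without fasted library 1 it was 2. With members that had a lineage UMI only, it was 13. The number of these genes and their split between higher and lower thus changed with the libraries used. For 233 genes (15.8%) both fasted values exceeded every fed value, and for 57 (3.87%) both were below every fed value. No direction is read from these counts, since the filter on counts was met most easily in the fasted libraries, whose members held the most UMIs. Without fasted library 1 or 2, 986 and 1070 genes met the filter, against between 1384 and 1437 without 1 of the fed libraries. With the fed libraries put into pools 1 and 3, and 2 and 4, the test called 65 genes, and with 1 and 2, and 3 and 4, it called 13, all lower. The number of called genes therefore depends on a pairing that the labels do not give. Libraries 3 and 4 differed from 1 and 2 in depth and ribosomal share, and across the genes tested the log2 CPM of members correlated at 0.733 between fed libraries 1 and 2, at 0.735 between 3 and 4 and at 0.528 to 0.671 between the other fed pairs. Fed libraries 1 and 2 correlated at 0.771 to 0.831 with the fasted libraries, which are another pool, so these values do not give the pools.

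The genes with the lowest p among those below all fed libraries were mt-Rnr2, Rpl38, mt-Cytb, mt-Nd4, Tuba1a, Rpl37, Atp6v0c, Ubb, Rps27a and CT010467.1. They encode mitochondrial RNAs, ribosomal proteins, a tubulin, a proton pump subunit, ubiquitin and a ribosomal RNA sequence. The mitochondrial ribosomal RNA mt-Rnr2 was at 323, 323, 866 and 711 CPM in fed libraries 1 to 4 and at 52.9 and 53.0 CPM in the fasted pair, a log2 fold change of -3.40 ± 0.41 (SE; edgeR adjusted p = 0.247). Rpl38 was at 262, 133, 787 and 601 CPM and at 31.7 and 13.3 CPM in the fasted libraries, where it rested on 4 UMIs. Tuba1a was at 545, 493, 3386 and 2459 CPM and at 286 and 371 CPM in the fasted libraries, and its log2 fold change of -2.73 became -0.84 with fed libraries 1 and 2 only, while that of mt-Rnr2 became -2.73. In each of them fed libraries 3 and 4 were the highest, as they were for the ribosomal share. Of 17 ribosomal protein genes tested, 14 had an unadjusted p under 0.05, all lower, with a median log2 fold change of -2.44, and the 3 mitochondrially encoded genes tested had a median of -3.59. With fed libraries 1 and 2 only, 4 ribosomal protein genes were tested, 1 of them had an unadjusted p under 0.05, and the median was -0.59. Of the 17, the number at an unadjusted p under 0.05 was 0 without fasted library 1, 7 without fasted library 2, 5 in members with a lineage UMI and 6 with the replicate block. Without fed library 3 or 4, 5 were tested and 1 and 2 had such a p. The 3 mitochondrially encoded genes had a median of -3.58 without fasted library 1 and of -3.71 without fasted library 2, each from 1 fasted library. The 2 mitochondrially encoded genes tested with fed libraries 1 and 2 only had a median of -2.68, both with an unadjusted p under 0.05. The same contrast gave -3.38 in precursors and -3.41 in mature oligodendrocytes for mt-Rnr2. With the fed libraries put into pools 1 and 3, and 2 and 4, the medians of the ribosomal and mitochondrial genes were -2.33 and -3.58. With pools 1 and 2, and 3 and 4, they were -2.70 and -3.82. Genes of both groups were among those called under these pairings. The part of nuclear purity or preparation in these values was not tested.

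No gene of the oligodendrocyte lists passed the threshold between fasted and fed members. Of the stage genes outside the rule, 20 were tested, none had an unadjusted p under 0.05, and the median log2 fold change was -0.23. Bcas1 had a log2 fold change of -0.06 ± 0.58 (SE; edgeR adjusted p = 1.00). The 18 precursor markers tested had a median of -0.03 and none at an unadjusted p under 0.05. Of 16 myelin genes, 2 had an unadjusted p under 0.05, both lower, where 4.28% of all genes tested were lower at that p. The median was -0.28. Mbp, given above, had a log2 fold change of -0.21 ± 0.33 (SE; edgeR adjusted p = 1.00). Sox10 was at 666, 569, 630 and 437 CPM in fed libraries 1 to 4 and at 942 and 1061 CPM in the fasted pair, without overlap, but its log2 fold change of 0.53 ± 0.77 had an adjusted p of 1.00 by edgeR. The neuronal marker Snhg11 was at 827, 1233, 748 and 656 CPM and at 1947 and 1286 CPM in the fasted libraries, and Meg3 at 907.6, 1252, 945 and 874 CPM and at 1704 and 1339 CPM. Without the 1 member of 156 neuronal UMIs, fasted library 1 fell to 1211 CPM for Snhg11 and 1100 CPM for Meg3, both below fed library 2, so that the groups overlapped. The part of neuronal RNA in the comparison was not tested.

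Genes that respond to glucocorticoids or fasting were mostly too low in 83 nuclei to be tested. Of 20 glucocorticoid-responsive genes 16 were detected and 2 tested, and of 24 genes of fasting and insulin signalling 22 were detected and 1 tested. Of 24 genes of cholesterol synthesis and uptake all were detected and none was tested. Between the classes, 9, 5 and 3 genes of these lists were measurable. Of the glucocorticoid-responsive genes 2 were higher and 1 lower than in precursors and 1 higher and 4 lower than in mature oligodendrocytes, and the median of 0.10 against precursors turned to -0.12 with TMM scaling. Of the fasting and insulin genes none was higher and 2 were lower than in precursors, with 2 higher and 1 lower than in mature oligodendrocytes, and all 3 cholesterol genes were lower than in mature oligodendrocytes. Beside the 20.4% higher and 23.0% lower of all genes against precursors, and the 32.6% and 20.8% against mature oligodendrocytes, nothing is read from counts over 9, 5 and 3 genes. Fkbp5, a glucocorticoid-induced co-chaperone, was at 80.7, 75.9, 0 and 82.0 CPM in fed libraries 1 to 4 and at 169 and 199 CPM in the fasted pair. Both fasted values were the highest, from 16 and 15 UMIs, while the fed libraries held 4, 4, 0 and 3, and 0 UMIs in library 3 allow up to 118 CPM. Fkbp5 thus met the count filter through the fasted libraries alone. Under that filter, a gene so low in the fed libraries could be tested only if it was higher after the fast. No direction is therefore read from Fkbp5, and its range over alternatives covers only those in which it was tested. The log2 fold change was 1.21 ± 0.81 (SE; edgeR adjusted p = 1.00), and over the alternatives tried it ranged from 1.00 to 1.48. The same contrast gave 0.79 in precursors and 3.32 in mature oligodendrocytes, with no call in either class (adjusted p = 1.00 in both by edgeR).

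**Figure D5:**
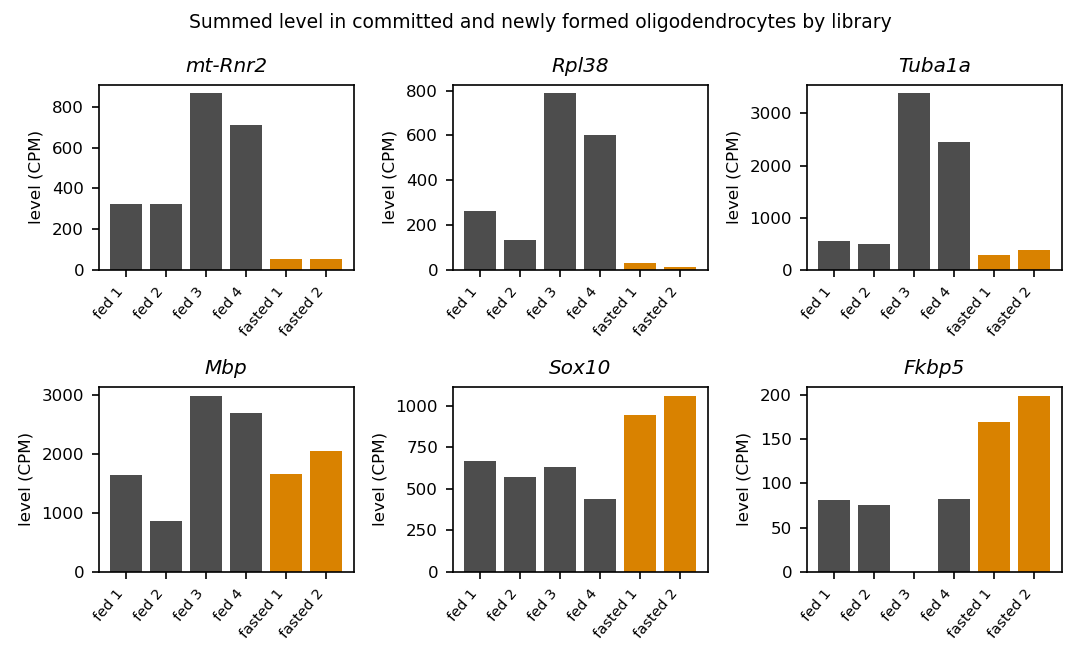
Level of 6 genes in the summed committed and newly formed oligodendrocytes of each library (CPM), ad libitum fed in gray and fasted in orange. The fasted libraries were lowest for mt-Rnr2, Rpl38 and Tuba1a, within the range of the fed ones for Mbp and highest for Sox10 and Fkbp5. Fkbp5 met the count filter through the fasted libraries alone. Fed libraries 3 and 4 exceeded libraries 1 and 2 for mt-Rnr2, Rpl38, Tuba1a and Mbp. No difference passed the threshold.

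Whether fasting acted differently in members than in the neighbouring classes was tested by the interaction of class and condition with pool as a block. Against precursors, 1436 genes were tested and none was called (0.0%; edgeR's quasi-likelihood test), with 13 at an unadjusted p under 0.05. Against mature oligodendrocytes, 1441 genes were tested and none was called (0.0%), with 42 at an unadjusted p under 0.05. Leaving out fed library 2 gave 1 called gene against precursors and 4 against mature oligodendrocytes. A count of 0 with 1 fasted pool does not show that members and the other classes responded alike.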

How the data were processed

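The members and all gene lists were chosen with earlier results of these data known. The authors made the deposited UMI counts per gene and nucleus with Cell Ranger 5.0.1 on GRCm38 (mm10, per the labels), with an Ensembl annotation. Whether introns and strand were used in the counting is not given in the sources used here. The 6 libraries held 262084442 UMIs in 39953 barcodes, of which 39665 had at least 1000 UMIs. No ambient RNA was removed. Doublet scores were computed with Scanpy's Scrublet and no nucleus was removed by them. Counts were summed per class and library or pool. Genes that reached 10 counts in 2 or more libraries were tested with edgeR 4.0.16 (TMM, quasi-likelihood) under 3 pairings of the ad-libitum-fed libraries, with the fasted pool assumed to vary like the others, and adjusted by Benjamini-Hochberg at 0.05. DESeq2 1.42.0 was an alternative. The fits were tested on simulated data first. Shares were compared by exact permutation over libraries (SciPy 1.17.1), with 95% Clopper-Pearson intervals. Levels are CPM with a pseudocount of 1. Neuronal reference nuclei had at least 10 UMIs of Snap25, Syt1 and Rbfox3. Positions are from GENCODE M21 on GRCm38. Alternatives changed the pairing, normalization, count filter, pseudocount, UMI and marker minimum, neuronal gate and depth, and left out each library in turn. Restriction to ad-libitum-fed libraries 1 and 2, inclusion of nuclei that also pass for precursor or mature markers, leaving out libraries for the class levels, values without 1 member rich in neuronal RNA and levels within libraries were added after seeing the data. Genes named are those of the rule, of the lists, the 10 highest and 10 lowest by class ratio, and the 10 with the lowest p among genes whose fasted libraries lay on one side of all others. A few genes are not reported here.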

Additional observations from a re-analysis of the deposited data

Results flagged for a closer look

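Of 47 values examined over the 4 ad-libitum-fed libraries, 6 passed Dixon's test for 1 library apart from the other 3, where chance gives about 1 in 20. For 5 of them the other 3 libraries were at 0, so the test was met by 1 to 4 UMIs in 1 library and says little. Among the genes lowest in the members, Creb5 reached 56.9 CPM, Hepacam 19.0 CPM and Pstpip2 75.9 CPM in ad-libitum-fed library 2, Arap2 reached 20.2 CPM in library 1 and Gng11 reached 27.3 CPM in library 4, each with no UMI in the other 3 ad-libitum-fed libraries. Over all members, these 5 genes had between 1 and 8 UMIs, and Hepacam, Arap2 and Gng11 rested on 1 UMI in the library named. Fkbp5 was at 0 CPM in ad-libitum-fed library 3 and between 75.9 and 82.0 CPM in the others, and a count of 0 there allows up to 118 CPM.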

How the results depend on the processing

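Both share differences kept their sign under the alternatives run, but the groups did not stay apart in all. With no neuronal marker UMI allowed, fasted library 2 (0.0851% of nuclei) lay below ad-libitum-fed libraries 1 and 2 (0.0948% and 0.105%). With nuclei that also pass for other markers, members were 12.1%, 14.6%, 31.7% and 31.5% of the lineage with food and 12.9% and 12.0% after the fast. The difference of the share of all nuclei ranged from 0.0767 percentage points (no neuronal marker UMI allowed) to 1.15 with nuclei that also pass for precursor or mature markers (274 nuclei), and that of the lineage share from -3.13 (no neuronal gate) to -10.1. Genes called between fasted and ad-libitum-fed members numbered 0, but 13 and 65 under 2 of the 3 pairings and 1 without a count filter, and 0 to 1 when a library was left out, the 1 without ad-libitum-fed library 2. The difference from precursors gave 0 called genes, but 1 and 1 under 2 pairings and 2 without a count filter, and 0 to 1 with a library left out. The difference from mature oligodendrocytes gave 0, but 3 and 4 under 2 pairings and 2 without a count filter, and 0 to 4 with a library left out (4 without ad-libitum-fed library 2, 2 without fasted library 2). The cause was not tested. A replicate block over the 6 libraries called 0 genes; equally numbered libraries did not pair (correlations of their deviations -0.0439 and -0.176). Genes at least 4-fold over both classes numbered 31 with TMM scaling and 48 with a pseudocount of 10, against 60, and genes under both 33 and 6, against 20; leaving out a library gave 57 to 71 and 17 to 27. Over all comparisons, 79 alternative values fell on the same side as the reported one, 13 gained called genes and 3 counts moved by over 1.5 times. For single genes, 553 did not change side or move beyond the spread, 45 moved and 15 passed the threshold. Enpp6-only and Bmp4-only members were not tested against each other, and the alternatives of that comparison were not run. With 4 and 6 members in ad-libitum-fed libraries 3 and 4, 3 UMIs correspond to 118 and 82.0 CPM there, which limits every level below about that size.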
